A study of Mus musculus with 48 samples.

Results

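The axon guidance ligands and receptors were followed as a gene module through the hippocampal transcriptomes of conditional CB1-KO mice. Members were taken by gene symbol from the semaphorin, plexin, neuropilin, slit, robo, netrin, Unc5, ephrin and Eph receptor families. No measured value entered this rule, although earlier results of these data were known when it was set. This gave 68 of the 24421 genes in the count table, of which 35 encode ligands and 33 encode receptors.

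Guidance ligands are secreted or displayed on cell surfaces, and they attract or repel a growing axon by acting on receptors at its tip. Semaphorins signal through plexins, with the neuropilins as co-receptors for most of the secreted class 3 members, slits repel through robo receptors, and netrins repel through Unc5 receptors. Ephrins are bound to the membrane and signal through Eph receptor tyrosine kinases on the opposing cell, which arranges topographic projections in development and adjusts dendritic spines and synapses in the adult hippocampus. The CB1 cannabinoid receptor, encoded by *Cnr1*, lowers transmitter release at axon terminals and has itself been linked to axon growth and pathfinding.

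The libraries came from the hippocampal CA region, left after removal of the dentate gyrus, of male mice labelled as 8 weeks old. Floxed CB1 mice (CB1f/f) were crossed with mice in which Cre is driven by regulatory elements of *nex1* (*Neurod6*), active in glutamatergic neurons of the dorsal telencephalon, or of *dlx5/6*, active in forebrain GABAergic neurons, so that CB1 was deleted in the Glu-CB1-KO or in the GABA-CB1-KO mice. Each KO group was set against CB1-WT littermates, whose Cre and floxed alleles the labels do not spell out. Mice were taken from the home cage (basal) or after exploring an open field (OF) for 5 min, a new arena that raises neuronal activity. Per the study, the tissue of the OF mice was isolated an hour after this exposure. The groups held 5 Glu-CB1-WT and 7 Glu-CB1-KO mice in each state, 6 basal mice of each genotype in the GABA-CB1 line, and 7 GABA-CB1-WT and 5 GABA-CB1-KO mice after the open field. The study's text gives the sizes of these last groups the other way round, and the sample labels were followed here. Mice had been admitted to sequencing partly by tissue purity, behavior and *Arc* level, so that the spread between these mice may be narrower than between unselected ones. The whole CA tissue was sequenced, and a lower value can reflect fewer cells that make a transcript or less transcript per cell, which these data cannot tell apart.

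The 48 libraries held 25892654 to 34091080 assigned reads (median 30975561). *Cnr1* was lower in both KO lines (228.2 ± 16.1 against 379 ± 27.8 CPM, the read count scaled to library depth, SD, n = 7 and 5, in the basal Glu-CB1 line, and 148.5 ± 6.60 against 349.5 ± 28.4 CPM, n = 6 and 6, in the basal GABA-CB1 line, without overlap in either), and it stood at 135.4 ± 21.3 CPM in the 5 libraries labelled GABA-CB1-KO and 369 ± 18.8 CPM in the 7 labelled GABA-CB1-WT after the open field. *Arc*, an activity-regulated gene, was higher after the open field over all mice (log2 fold change 0.68, SE 0.12, adjusted p = 0.000161). Because mice were admitted partly by their *Arc* level, this rise is not an independent check of the stimulus. The CA1 marker list summed to 624.9 to 881 CPM and the dentate granule list to 85.2 to 273 CPM. Libraries of 2 kinds stood apart, and neither coincided with a group. In 14 libraries, between 1 and 3 in each group, the leading principal component of the most variable genes was low (17.5% of their variance), with *Xkr4* at 3.21 to 5.51 CPM against 8.75 to 39.3 CPM in the other libraries. All 14 carried animal numbers of the lower of the 2 ranges found in the labels of each line, as did some other libraries. This animal number range was not evenly spread over the groups compared. In 4 libraries, *Ttr*, a choroid plexus transcript, stood at 234 to 3870 CPM against 11.8 to 75.6 CPM elsewhere.

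Members were expressed from near the limit of detection to among the more abundant neuronal transcripts, and their typical level was that of the transcriptome. On the length-corrected scale of CPM per kilobase of exon (RPKM), the median of the 68 member means was 7.18 RPKM, against 7.19 RPKM over the 15570 genes that passed the filter on low counts. Of the 68 members, 67 passed that filter in every comparison. *Epha1*, an Eph receptor known mainly from epithelia, did not (0.04 RPKM, at most 0.34 CPM in any library) and was not tested.

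Among the ligands, *Slit1* (51.2 RPKM), a repellent acting on robo receptors, *Sema7a* (43.9 RPKM), a semaphorin anchored to the membrane by a lipid, and *Efnb3* (42.4 RPKM), a transmembrane ephrin, had the highest levels. *Efna3* reached 34.1 RPKM while its relative *Efna4* stood at 0.30 RPKM. In the class 3 semaphorins, the secreted ligands of neuropilin and plexin complexes, *Sema3e* (19.7 RPKM) was the most abundant and *Sema3b* (0.38 RPKM) the least. Classes 4 and 6, which span the membrane, ran from *Sema4c* (2.79 RPKM) to *Sema4f* (13.6 RPKM) and from *Sema6a* (3.56 RPKM) to *Sema6b* (25.3 RPKM), and class 5 held *Sema5b* (3.27 RPKM) and *Sema5a* (10.95 RPKM). All 4 netrins were low, from *Ntn5* (1.22 RPKM) to *Ntn3* (1.79 RPKM). *Slit2* (8.76 RPKM) and *Efnb1* (3.05 RPKM) were the lowest of their families.

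Among the receptors, *Epha4*, which binds ephrins of both classes, was the most abundant member of the whole module at 100.2 RPKM (83.2 to 121 RPKM over the 48 libraries). The highest level in each other receptor family was that of *Unc5a* (34.7 RPKM), a netrin receptor, *Plxna1* (34.6 RPKM), a semaphorin receptor subunit, *Nrp1* (29.1 RPKM), *Ephb6* (24.7 RPKM), an Eph receptor whose kinase is inactive, and *Robo2* (18.7 RPKM). The lowest were *Robo4* (1.69 RPKM), known mainly from endothelium, *Ephb4* (1.08 RPKM), *Unc5b* (4.70 RPKM), *Plxnb3* (5.45 RPKM) and *Nrp2* (10.7 RPKM). Every family therefore had at least 1 member above 1 RPKM, and the families differed in how far their members spread.

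**Figure D1:**
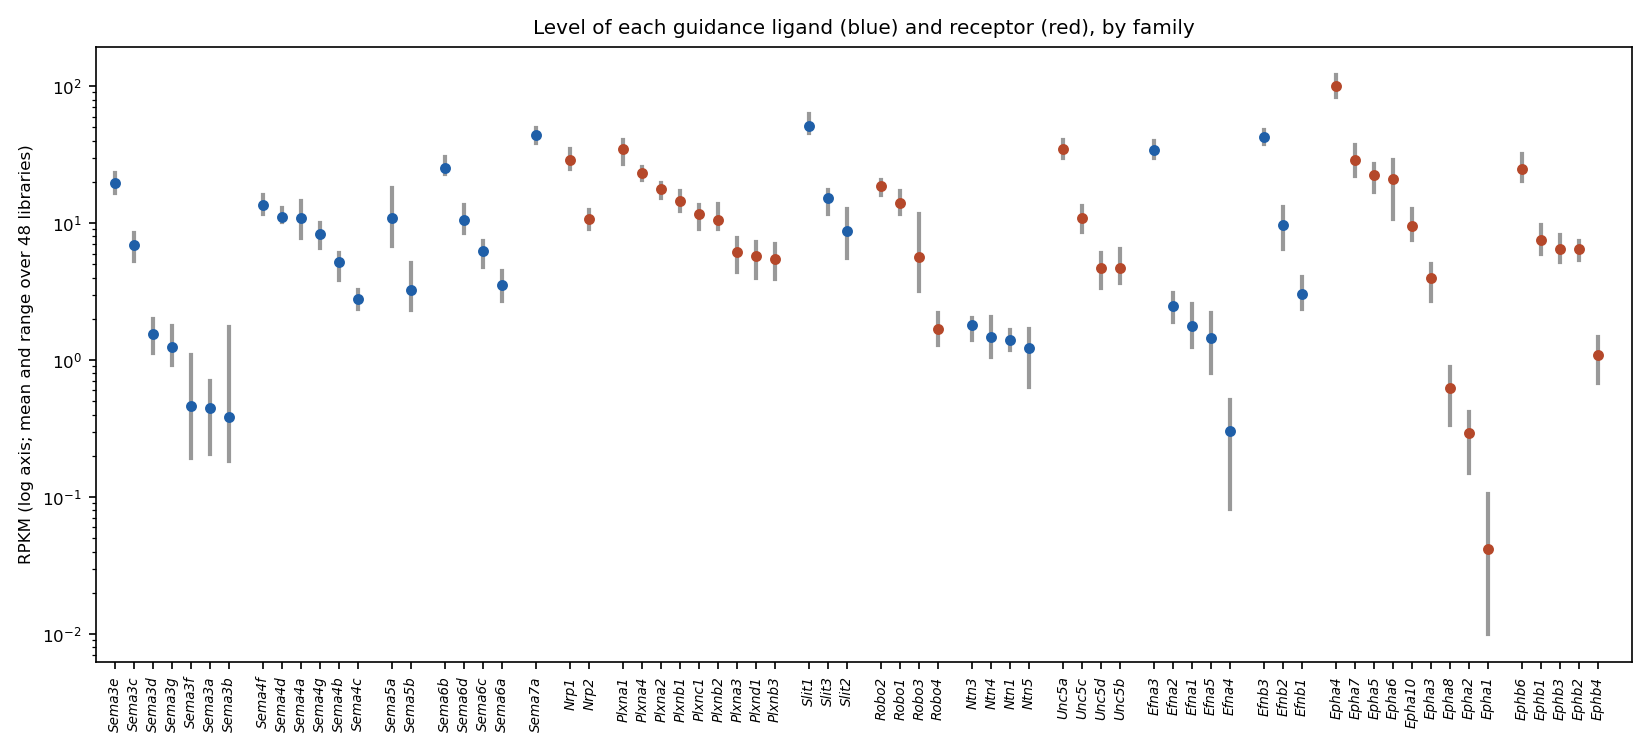
Level of each of the 68 members in RPKM on a log axis, grouped by family, with points at the mean and bars from the lowest to the highest of 48 libraries, ligands in blue and receptors in red. *Epha4* at 100.2 RPKM tops the module, *Epha1* at 0.04 RPKM is at its bottom, and the 4 netrins lie between 1.22 and 1.79 RPKM.

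Promoter sequences were taken from the RefSeq table for GRCm38.p6, which held 75 entries for 59 of the 68 members. The 250 bases before the transcription start were searched on both strands for 4 motifs. The cyclic AMP response element bound by activity-regulated factors (TGACGTCA) occurred in 1.33% of the member entries and in 1.55% of all 32851 entries. The E-box (CACGTG) occurred in 5.33% and 6.02%. The GC box (GGGCGG) was present in 70.7% of the member entries and in 32.7% of all entries, and the TATA box (TATAAA) in 2.67% and 12.4%. The 4 upstream stretches shown are those of *Sema4f*, the member that the comparisons between KO and CB1-WT mice turn on, and of *Efna1*, *Sema4c* and *Ntn3*, which were lower after the open field. They lie at chr6:82939770-82940019, chr3:89280952-89281201, chr1:36558382-36558631 and chr17:24209388-24209637, all on the minus strand of GRCm38.p6, and each is written 5′ to 3′ along its gene and ends just before the annotated start. Capitals mark matches to any of these motifs.
Sema4f: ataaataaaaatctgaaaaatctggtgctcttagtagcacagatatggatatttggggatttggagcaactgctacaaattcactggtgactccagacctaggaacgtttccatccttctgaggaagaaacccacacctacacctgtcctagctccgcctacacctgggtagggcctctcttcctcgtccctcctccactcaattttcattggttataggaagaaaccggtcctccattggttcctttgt
Efna1: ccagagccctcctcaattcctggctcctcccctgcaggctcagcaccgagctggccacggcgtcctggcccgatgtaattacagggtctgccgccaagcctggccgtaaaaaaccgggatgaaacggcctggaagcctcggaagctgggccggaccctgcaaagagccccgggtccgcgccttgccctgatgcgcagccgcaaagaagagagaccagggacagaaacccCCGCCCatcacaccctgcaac
Sema4c: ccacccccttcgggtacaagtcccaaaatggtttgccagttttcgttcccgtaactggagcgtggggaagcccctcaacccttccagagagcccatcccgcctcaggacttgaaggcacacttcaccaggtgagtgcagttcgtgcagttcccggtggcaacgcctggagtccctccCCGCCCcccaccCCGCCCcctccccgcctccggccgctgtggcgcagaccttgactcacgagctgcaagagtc
Ntn3: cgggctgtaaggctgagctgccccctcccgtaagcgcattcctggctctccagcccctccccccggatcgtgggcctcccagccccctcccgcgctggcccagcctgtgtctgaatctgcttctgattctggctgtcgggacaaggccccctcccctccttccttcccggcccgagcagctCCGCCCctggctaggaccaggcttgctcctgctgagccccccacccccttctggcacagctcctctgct

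The matches in capitals were GC boxes, all on the strand opposite to the gene. *Sema4c* held a pair of them, beginning 73 and 61 bases before the start, while *Efna1* held 1 at 21 bases and *Ntn3* 1 at 69 bases. The *Sema4f* stretch held none of the 4 motifs, and the cyclic AMP response element was in none of the 4 stretches.

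The comparison of KO with CB1-WT mice asked how guidance genes differ when CB1 is lost from glutamatergic or from GABAergic neurons. *Sema4f* was the member in which these comparisons stood out. It encodes a transmembrane semaphorin found at glutamatergic synapses, and the gene lies on the minus strand of chr6:82911885-82939769 (mm10). It was lower in Glu-CB1-KO mice in both states, and it was the least variable of the 67 tested members within groups (residual SD 0.06 on the log2 CPM scale).

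In the basal state, *Sema4f* stood at 66.5, 66.9, 69.2, 71.4 and 75.4 CPM in the 5 Glu-CB1-WT libraries and at 58.9 to 62.6 CPM (median 60.8) in the 7 Glu-CB1-KO libraries. After the open field it stood at 68.3, 72.1, 72.2, 72.2 and 76.0 CPM in the Glu-CB1-WT libraries and at 59.8 to 66.8 CPM (median 63.8) in the Glu-CB1-KO libraries. In each state all 7 KO libraries were below every CB1-WT library.

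The basal difference of *Sema4f* was −0.20 as a log2 fold change (SE 0.04), where its adjusted p was 0.140 by edgeR's quasi-likelihood test and none of the 67 members passed 0.05, against 0.0198% of all genes (3 of 15138). After the open field it was −0.19 (SE 0.04, adjusted p = 0.0373), which made *Sema4f* the only member called there, against 0.285% of all genes. With both states in a fit of 24 libraries, *Sema4f* fell by 0.20 on the log2 scale (SE 0.03, adjusted p = 8.93e-05), again as the only called member (0.247% of all genes). The open field call alone was fragile: it was lost without any of Glu-CB1-WT OF replicates 1, 3, 4 and 5 or Glu-CB1-KO OF replicates 1, 2, 3, 5 and 7 (adjusted p from 0.0547 to 0.154), without the 14 libraries of low component (0.234), with the replicate block (0.242) and with the animal number range as a covariate (0.101). Of the marker genes, *Fezf2* (subiculum and cortex, 0.33, adjusted p = 0.0251), *Prkcd* (thalamus, −0.58, adjusted p = 0.00244) and *Iyd* (CA3, −0.56, adjusted p = 0.0358) also differed after the open field, and their part in it was not tested. The call over both states held in all 10 alternative settings and without each of the 24 libraries in turn (adjusted p at most 0.0135).

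In the GABA-CB1 line the values of *Sema4f* lay the other way. The basal GABA-CB1-WT libraries ran from 66.3 to 76.0 CPM (median 69.1) and the GABA-CB1-KO libraries from 71.0 to 76.9 CPM (median 73.9). After the open field the 7 GABA-CB1-WT libraries ran from 64.7 to 71.5 CPM (median 67.0), and the GABA-CB1-KO libraries stood at 68.3, 72.3, 74.5, 80.3 and 81.4 CPM. The groups overlapped in each state, although every KO library was above the CB1-WT median. The KO difference was 0.09 (SE 0.04, adjusted p = 0.564) in the basal state, 0.15 (SE 0.05, adjusted p = 0.249) after the open field and 0.12 over both (SE 0.03, adjusted p = 0.0698), and none of them passed the threshold.

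The difference between the lines was tested directly. The log2 KO effect on *Sema4f* in the Glu-CB1 line minus that in the GABA-CB1 line was −0.29 at baseline (SE 0.05, adjusted p = 0.00327). In the open field mice the same quantity was −0.34 (SE 0.06, adjusted p = 0.00376). *Sema4f* was the only member called in the basal test, against 0.292% of all genes, and 1 of 2 called in the open field test, against 0.568%. Both calls held in all 10 alternatives and without each of the 24 libraries in turn. The CB1-WT mice of the 2 lines differed in *Sema4f* by 0.05 (SE 0.03, adjusted p = 0.999).

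**Figure D2:**
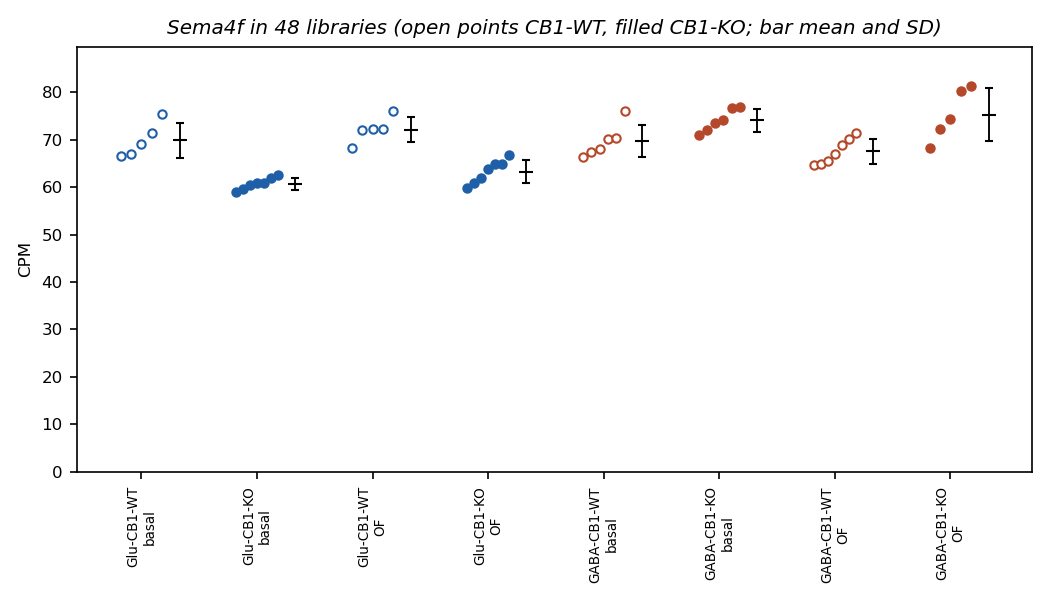
*Sema4f* in CPM in the 48 libraries by group, with open points for CB1-WT mice, filled points for CB1-KO mice and bars at the mean with the SD. The 7 Glu-CB1-KO libraries lie below all Glu-CB1-WT libraries in each state, while the GABA-CB1-KO libraries overlap with and extend above their CB1-WT groups.

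Position and tissue make-up were set beside this result. *Sema4f* lies 27.2 Mb from *Neurod6* (chr6:55677819-55681263), the gene whose regulatory elements drive Cre in the Glu-CB1 line, and *Neurod6* itself was lower in Glu-CB1-KO mice (214 against 352 CPM over both states, log2 fold change −0.72, adjusted p = 2.37e-11). Of the genes on chromosome 6 within 40 Mb of *Neurod6*, 8 of 402 (1.99%) were called in the Glu-CB1 line over both states, against 0.278% on the rest of that chromosome and 0.199% on the others. *Neurod6* and *Sema4f* themselves are among these 8. In the GABA-CB1 line the same shares were 0.25%, 0.556% and 0.465%. *Plxna1*, which lies 33.6 Mb from *Neurod6*, differed by −0.15 in Glu-CB1-KO mice (SE 0.04, adjusted p = 0.118), and *Ephb6*, *Plxna4* and *Plxnd1*, the other tested members on chromosome 6, by 0.04, −0.03 and 0.07 (adjusted p = 0.933, 0.970 and 0.960). This window was set after the values were seen. Loss of CB1, the Cre allele and the chromosome segment inherited with it cannot be told apart in this design. Across the 48 libraries, *Sema4f* had no relation that passed with the 15 marker lists of cell types and neighboring regions (Pearson's r within groups from −0.30 to 0.27, smallest adjusted permutation p 0.234, and 0.208 for Spearman's rho). Within the Glu-CB1 and GABA-CB1 lines r ran from −0.40 to 0.49 and from −0.46 to 0.39. With the CA3 list it was 0.31 and −0.37. The r of *Sema4f* with the leading principal component was −0.45 within groups. The part of tissue make-up in the *Sema4f* difference was not tested.

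No other member was called in the Glu-CB1 line. The nearest were a pair of repulsive ligands. *Sema3a*, the secreted semaphorin that collapses growth cones through *Nrp1*, was measured at 3.22 to 5.17 CPM (median 4.24) in basal Glu-CB1-KO mice and at 2.04, 3.01, 3.18, 3.19 and 3.24 CPM in their CB1-WT littermates. These groups overlapped only at their edges, and the difference was 0.51 in the basal state (SE 0.14, adjusted p = 0.892) and 0.48 over both states (SE 0.11, adjusted p = 0.0523).

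*Efna5*, an ephrin that repels axons carrying EphA receptors, was measured after the open field at 7.23 to 9.78 CPM (median 8.68) in Glu-CB1-KO mice and at 4.93, 5.08, 5.55, 6.12 and 7.65 CPM in CB1-WT mice. The groups overlapped by a single CB1-WT library, and the difference was 0.53 (SE 0.11, adjusted p = 0.0548). *Sema3a* over both states and *Efna5* after the open field passed the threshold in some alternative settings and not in others, among them DESeq2, which called both.

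Over the whole module, 27 of the 67 tested members had a fold change above 0 in basal Glu-CB1-KO mice (49.5% of all genes) and 26 after the open field (48.4% of all genes). Their median log2 fold changes were −0.02 and −0.04, against −9.12e-04 and −0.00248 over all genes tested. At an unadjusted p under 0.05, 3 members (4.48%) passed at baseline and 11 (16.4%) after the open field, against 3.51% and 6.84% of all genes.

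In the GABA-CB1 line the called member was *Ephb1*, a receptor for B-class ephrins known for steering retinal axons at the optic chiasm and for shaping hippocampal synapses (chr9:101922128-102354693, minus strand). The 6 basal GABA-CB1-KO libraries ran from 27.98 to 34.7 CPM (median 31.6) and the 6 CB1-WT libraries from 33.2 to 41.5 CPM (median 37.6). After the open field the KO libraries stood at 28.02, 28.4, 30.1, 32.1 and 35.5 CPM and the 7 CB1-WT libraries ran from 32.05 to 37.1 CPM (median 35.4). The groups overlapped in each state, with 10 of 11 KO libraries below the CB1-WT median. In annotation, 152 exonic bases of *Ephb1* overlap a transcript on the opposite strand.

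*Ephb1* fell by 0.22 on the log2 scale over both states (SE 0.04, adjusted p = 0.0136), as the only called member, against 0.462% of all genes. This call was lost with the replicate block (adjusted p = 0.0663) and held in the other 9 alternatives and without each of the 24 libraries in turn. Within the states its difference was −0.24 (SE 0.06, adjusted p = 0.128) and −0.19 (SE 0.06, adjusted p = 0.259). In the Glu-CB1 line it was 0.02 over both states (SE 0.05, adjusted p = 0.979), and the test of the difference between the lines gave 0.32 at baseline (SE 0.10, adjusted p = 0.268) and 0.16 after the open field (SE 0.08, adjusted p = 0.505). Across the 48 libraries *Ephb1* rose with the CA3 marker list (Pearson's r = 0.67 and Spearman's rho = 0.62 within groups, permutation p = 1e-05, the smallest these permutations can give, and 6e-05, adjusted p = 9.00e-04 and 0.0054, r = 0.58 without the 2 libraries farthest out, 0.69 and 0.67 within the Glu-CB1 and GABA-CB1 lines) and with the oligodendrocyte list (r = 0.49, rho = 0.53, adjusted permutation p = 0.00968 and 0.0144, r = 0.45 without the 2 farthest, 0.38 and 0.62 within the lines). The CA3 list summed to 315 to 355 CPM (median 341) in basal GABA-CB1-KO and 314 to 398 CPM (median 348) in basal GABA-CB1-WT libraries, and after the open field to 306 to 426 CPM (median 328) and 299 to 355 CPM (median 327). The oligodendrocyte list had medians of 4366 and 3955 CPM in basal GABA-CB1-KO and CB1-WT libraries, an order opposite to that of *Ephb1*, and of 4098 and 4431 CPM after the open field. The part of these lists in the *Ephb1* difference was not tested. Of the marker genes, the interneuron genes *Sst* and *Pvalb* (−0.31 and −0.17, adjusted p = 8.98e-04 and 0.0264) and *Stard5* (CA2, 0.30, adjusted p = 7.38e-04) differed in the same fit, and their part was not tested either.

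Within single states, no member was called in GABA-CB1-KO mice (0.259% of all genes at baseline, 0.0199% in explorers of the arena). *Sema4a*, a transmembrane semaphorin known from immune cells and the retina, was measured at 28.8 to 34.4 CPM (median 30.7) in basal GABA-CB1-KO and at 33.6 to 44.9 CPM (median 38.5) in CB1-WT mice, a difference of −0.32 (SE 0.07, adjusted p = 0.103) between groups that overlapped narrowly. *Bok*, a CA3 marker, differed there by −0.52 (adjusted p = 0.00306), and its part was not tested. *Sema4a* was called without GABA-CB1-WT basal replicate 3, without the choroid-rich libraries and by DESeq2. *Efna3* differed by 0.17 after the open field (SE 0.05, adjusted p = 0.215). At an unadjusted p under 0.05, 13 members (19.4%) passed at baseline and 12 (17.9%) after the open field, against 7.85% and 13.1% of all genes. A fold change above 0 was found for 38 and 35 of the 67 members, against 49.7% and 50.7% of all genes.

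*Efnb2*, a transmembrane ephrin that receives signals as well as sending them, was the other member whose KO effect differed between the lines (chr8:8617439-8660773, minus strand). After the open field it stood at 32.2, 34.2, 36.6, 37.5 and 41.001 CPM in Glu-CB1-WT libraries and at 40.8 to 51.1 CPM (median 43.7) in Glu-CB1-KO libraries. In the GABA-CB1 line it ran from 39.9 to 50.7 CPM (median 44.05) in CB1-WT libraries and stood at 33.002, 36.6, 37.9, 42.1 and 46.3 CPM in KO libraries. The CB1-WT values were thus low in the Glu-CB1 line and high in the GABA-CB1 line, and the KO values the reverse, with overlap in each line.

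In open field mice, *Efnb2* differed by 0.29 between Glu-CB1-KO and CB1-WT mice (SE 0.06, adjusted p = 0.0591). The GABA-CB1 difference was −0.20 (SE 0.08, adjusted p = 0.340), and the lines differed by 0.49 (SE 0.11, adjusted p = 0.0329). In the basal state the lines differed by −0.15 (SE 0.22, adjusted p = 0.884), when single groups of *Efnb2* spread as widely as 30.4 to 57.1 CPM. The open field call was lost without any of Glu-CB1-WT OF replicates 4 and 5, Glu-CB1-KO OF replicates 1 and 3, GABA-CB1-WT OF replicates 2 and 6 or GABA-CB1-KO OF replicates 1, 4 and 5 (adjusted p from 0.0509 to 0.0918), without the choroid-rich libraries (0.0813), with all 48 libraries in a single fit (0.254) and with the animal number range as a covariate (0.0552).

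Markers of other cells moved with *Efnb2*. The interneuron list of 10 genes summed, after the open field, to 714 to 860 CPM in Glu-CB1-WT, 849 to 952 CPM in Glu-CB1-KO, 834 to 886 CPM in GABA-CB1-WT and 765 to 811 CPM in GABA-CB1-KO libraries, higher in the KO than in the CB1-WT median of the Glu-CB1 line and lower in that of the GABA-CB1 line, as *Efnb2* was. Of its 10 genes, *Sst* and *Gad1* were called in the same test of the lines (0.78 and 0.25, adjusted p = 0.00142 and 0.0105). Across libraries, *Efnb2* was related within groups to that list (r = 0.58, rho = 0.49, adjusted permutation p = 0.0113 and 0.0384, r = 0.47 without the 2 farthest libraries, 0.64 and 0.48 within the Glu-CB1 and GABA-CB1 lines). It ran inversely to the CA3 list (r = −0.58, rho = −0.55, adjusted permutation p = 0.0072 and 0.0131, r = −0.52 without the 2 farthest, −0.65 and −0.52 within the lines) and to the dentate granule list (r = −0.58, rho = −0.48, adjusted permutation p = 0.0072 and 0.0299, r = −0.45 without the 2 farthest, −0.56 and −0.62 within the lines). These were among 90 relations computed for the 6 called members, of which 5 passed, and the part of these lists in the *Efnb2* difference was not tested.

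**Figure D3:**
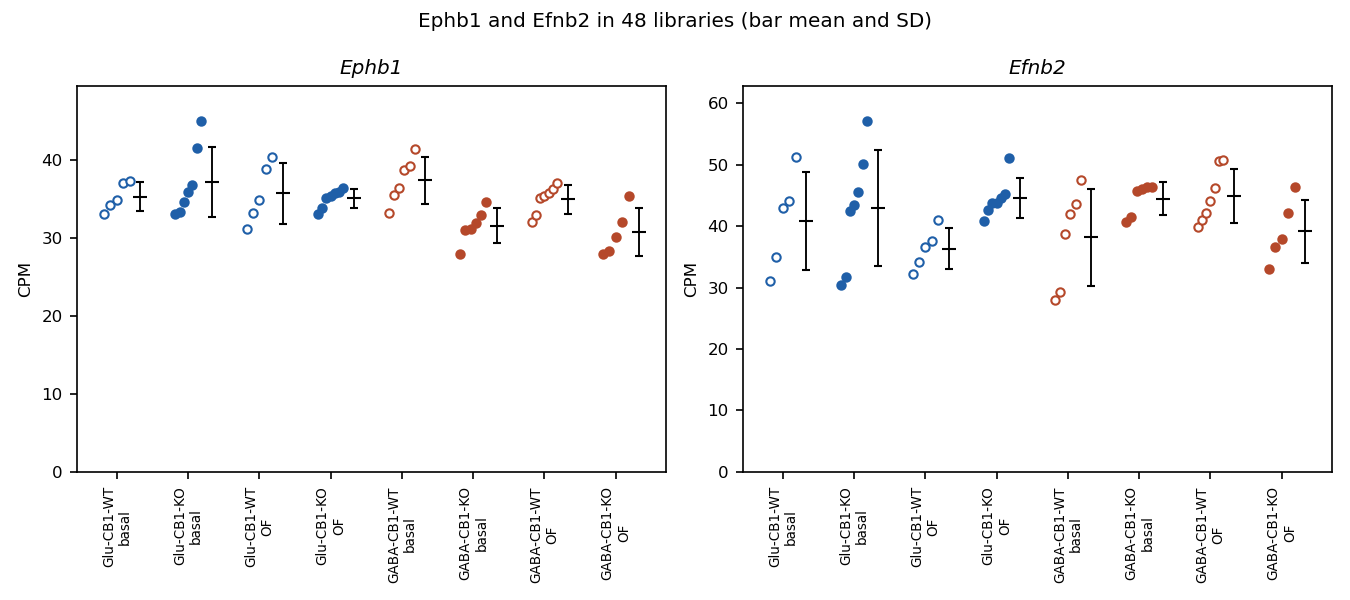
*Ephb1* and *Efnb2* in CPM in the 48 libraries by group, with open points for CB1-WT mice, filled points for CB1-KO mice and bars at the mean with the SD. *Ephb1* lies lower in GABA-CB1-KO than in GABA-CB1-WT libraries in each state with overlap, while the order of *Efnb2* after the open field is opposite in the lines.

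The open field comparison asked which members respond to exploring a new arena, with the 4 pairs of groups weighted equally. A set of 3 ligands was lower after it over all 48 mice and no member was higher, against 8.52% of all genes called, 3.07% lower and 5.45% higher. They were *Efna1*, an ephrin best known from blood vessels and astrocytes (chr3:89271730-89280951), *Sema4c*, a transmembrane semaphorin that binds *Plxnb2* (chr1:36548639-36558381), and *Ntn3*, a secreted netrin (chr17:24203843-24209387). All 3 are on the minus strand and are among the members whose upstream sequence is printed.

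*Efna1* was a low transcript, at 2.53, 2.64, 3.60, 3.64 and 4.23 CPM in basal and 2.18, 2.71, 2.76, 2.93 and 2.98 CPM in OF Glu-CB1-WT libraries. Glu-CB1-KO libraries ran from 2.81 to 3.69 CPM (median 3.24) at baseline and from 2.06 to 3.31 CPM (median 2.55) after the open field. GABA-CB1-WT libraries ran from 2.91 to 3.90 CPM (median 3.15) and from 2.27 to 3.01 CPM (median 2.55), and GABA-CB1-KO libraries from 2.54 to 3.44 CPM (median 2.94) and at 2.33, 2.37, 2.48, 2.50 and 2.76 CPM. The states overlapped in every group, and 23 of 24 OF libraries were below the basal median of their own line and genotype.

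*Efna1* fell by 0.29 on the log2 scale over all mice (SE 0.06, adjusted p = 0.000529). In the GABA-CB1 line alone it fell by 0.28 (SE 0.07, adjusted p = 0.0417), as the only called member against 0.969% of all genes, and in the Glu-CB1 line the difference was −0.30 (SE 0.09, adjusted p = 0.108), where no member was called against 1.28% of all genes. Over all mice the call held in all 9 alternatives, and single libraries were not left out in turn. The GABA-CB1 call was lost without any of 13 libraries, namely GABA-CB1-WT basal replicates 3, 4 and 5, GABA-CB1-KO basal replicates 2, 3 and 6, GABA-CB1-WT OF replicates 1, 3, 6 and 7 and GABA-CB1-KO OF replicates 3, 4 and 5 (adjusted p from 0.0505 to 0.0847), and in 5 of 10 alternatives.

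*Sema4c* moved less and was more abundant. Its group means fell from 12.9 ± 0.682 to 11.5 ± 1.07 CPM in Glu-CB1-WT mice (SD, n = 5 and 5), from 12.4 ± 1.09 to 11.04 ± 0.811 CPM in Glu-CB1-KO mice (n = 7 and 7), from 12.7 ± 0.366 to 11.5 ± 0.907 CPM in GABA-CB1-WT mice (n = 6 and 7) and from 12.3 ± 1.14 to 11.8 ± 0.663 CPM in GABA-CB1-KO mice (n = 6 and 5). The log2 fold change over all mice was −0.13 (SE 0.03, adjusted p = 0.00531), and 23 of 24 OF libraries were below the basal median of their group. In annotation, 334 exonic bases of *Sema4c* overlap a transcript on the opposite strand.

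*Ntn3* means went from 9.15 ± 0.471 to 8.27 ± 0.299 CPM in Glu-CB1-WT, from 9.08 ± 0.787 to 8.58 ± 0.229 CPM in Glu-CB1-KO, from 9.03 ± 0.327 to 8.38 ± 0.722 CPM in GABA-CB1-WT and from 9.18 ± 0.503 to 8.55 ± 0.945 CPM in GABA-CB1-KO mice, with the same numbers of mice. The fold change over all mice was −0.11 (SE 0.03, adjusted p = 0.0137), with 21 of 24 OF libraries below their basal median. Exons of *Ntn3* share 89 bases with the neighboring *Tbc1d24* on the same strand and 139 bases with an antisense transcript, and its counts are uncertain to that extent. The calls of *Sema4c* and *Ntn3* over all mice held in all 9 alternatives. Single libraries were not left out in turn in this comparison. Of the marker genes, *Gjb6* of astrocytes (0.20, adjusted p = 0.0182), *Tmem119* of microglia (0.12, adjusted p = 0.0401) and *Pdgfrb* of vessels (−0.12, adjusted p = 0.0216) also differed over all mice, and their part in these results was not tested.

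**Figure D4:**
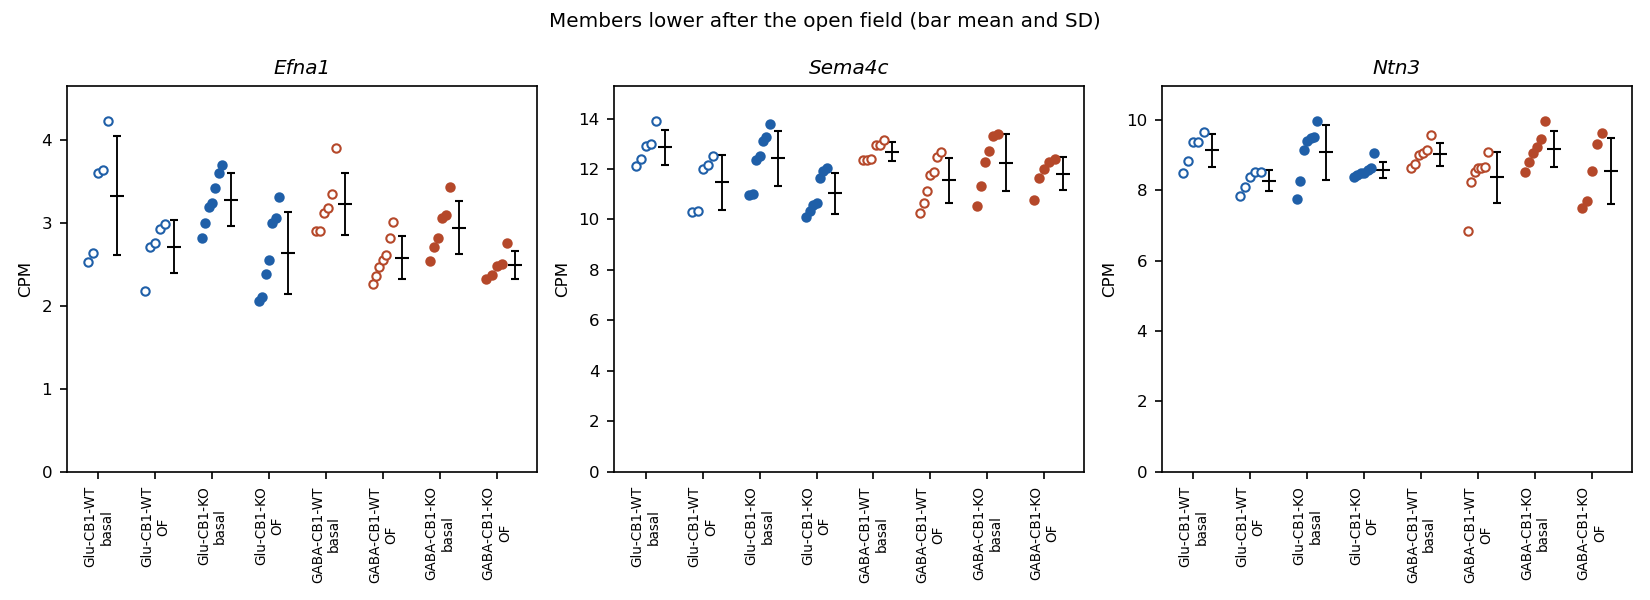
*Efna1*, *Sema4c* and *Ntn3* in CPM in the 48 libraries, with each basal group beside the open field (OF) group of the same line and genotype, open points for CB1-WT and filled points for CB1-KO mice, and bars at the mean with the SD. The mean of each of the 3 ligands is lower after the open field in all 4 pairs of groups, with overlapping libraries.

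Over the module, 22 of 67 members had a fold change above 0 after the open field, against 46.7% of all genes, among them 10 of 35 ligands and 12 of 32 tested receptors. The median log2 fold change was −0.03, against −0.00415 over all 15570 genes. At an unadjusted p under 0.05, 12 members (17.9%) passed, against 21.4% of all genes.

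The response to the open field was not found to depend on genotype for any member. In the interaction tests, edgeR called 0 genes of all 15355 in the Glu-CB1 line and 0 of 15374 in the GABA-CB1 line, while 2.39% and 14.4% passed an unadjusted p under 0.05, and DESeq2 called 0 and 62 genes with no member among them. Of the 67 members, 2 (2.99%) and 13 (19.4%) passed an unadjusted p under 0.05 in these edgeR tests. The members of smallest p were *Plxnc1* (0.21, SE 0.09) and *Robo4* (−0.29, SE 0.14) in the Glu-CB1 line, both at an adjusted p of 1.00, and *Slit1* (0.25, SE 0.08, adjusted p = 0.220) and *Efna3* (0.16, SE 0.06, adjusted p = 0.240) in the GABA-CB1 line. The CB1-WT mice of the lines did not differ in any called gene by edgeR or DESeq2, with 3.84% of genes and 0 of 67 members at an unadjusted p under 0.05 in edgeR. Their members of smallest p were *Ephb4* (−0.15, SE 0.07) and *Efnb3* (−0.07, SE 0.03), both at an adjusted p of 0.999. Line and breeding cannot be told apart here.

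The wider guidance pathway was read from a list of 49 other genes, such as receptor partners and intracellular effectors. In the GABA-CB1 line over both states, *Srgap1*, an intracellular partner of robo receptors, fell by 0.18 on the log2 scale (SE 0.04, adjusted p = 0.0358). It was the only 1 of the 49 called, against 0.462% of all genes. None was called there with all 48 libraries in 1 fit, with the replicate block or without the 14 libraries of low component. After the open field over all mice, 1 of the 49 rose and 2 fell, against 5.45% of all genes called higher and 3.07% called lower. *Mical1*, an oxidase that disassembles actin downstream of plexins, fell by 0.16 (SE 0.04, adjusted p = 0.00771) and its relative *Mical3* rose by 0.10 (SE 0.03, adjusted p = 0.0400), although none of the 49 was called higher with the animal number range as a covariate or without the choroid-rich libraries. *Lrrc4c*, a postsynaptic ligand of netrin G1, fell by 0.09 (SE 0.03, adjusted p = 0.0208). In the other 12 comparisons edgeR called none of the 49 as fitted here, while DESeq2 called 1 higher in OF Glu-CB1-KO, 2 lower in OF GABA-CB1-KO, 1 higher in Glu-CB1-KO over both states and 1 lower for the open field in the Glu-CB1 line. Other edgeR settings called at most 1 in each direction in these comparisons or for the open field in the GABA-CB1 line.

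Members varied more between mice of a group than genes in general, with a median residual SD of 0.15 against 0.12 over all genes on the log2 CPM scale. Part of this ran along the component on which 14 libraries stood apart. Within groups, 12 members had a Pearson's r of 0.5 or more with it and 4 of −0.5 or less. *Epha6*, an Eph receptor of the brain, followed it most, at 45.1 to 70.8 CPM (median 58.4) in the 14 libraries and 71.5 to 121 CPM (median 101) in the other 34, without overlap. *Unc5c* ran from 81.1 to 96.8 CPM against 96.7 to 124 CPM, and *Epha10*, an Eph receptor without kinase activity, lay the other way with medians of 58.7 and 47.96 CPM. None of these was called in any comparison, and *Sema4f* stayed called over both states in the Glu-CB1 line with the component as a covariate and without the 14 libraries.

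The members of largest spread were *Sema3b* (residual SD 0.54), *Sema3f* (0.52) and *Efna4* (0.44), 3 ligands at 1.64, 1.58 and 0.48 CPM on average. Both highest values of *Sema3b*, 7.41 CPM in GABA-CB1-KO OF replicate 4 and 5.38 CPM in GABA-CB1-WT basal replicate 3, belonged to choroid-rich libraries, against a range of 0.78 to 2.38 CPM in the other 46. *Sema3b* followed the choroid plexus list (r = 0.82 and rho = 0.47 within groups, adjusted permutation p = 0.00293 and 0.0523, r = 0.59 without the 2 farthest libraries, 0.60 and 0.88 within the Glu-CB1 and GABA-CB1 lines). It also followed the list of meningeal fibroblasts (r = 0.74, rho = 0.51, adjusted permutation p = 0.0045 and 0.0281, r = 0.48 without the 2 farthest, 0.22 and 0.90 within the lines).

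*Sema3f*, the neuropilin-2 ligand and neighbor of *Sema3b* on chromosome 9, ran from 0.65 to 3.71 CPM. It rose with the list of the subiculum and cortex (r = 0.60, rho = 0.65, adjusted permutation p = 9.00e-04 and 4.50e-04, r = 0.63 without the 2 farthest libraries, 0.61 within each line) and ran inversely to the CA3 list (r = −0.48, rho = −0.46, adjusted permutation p = 0.0418 and 0.0481, r = −0.47 without the 2 farthest, −0.46 and −0.54 within the lines). *Efna4*, at 4 to 25 reads per library, was related to none of the 15 lists. In all, 6 of 45 relations of these 3 members passed over the 48 libraries, the others being those of *Sema3f* with the thalamus and meningeal lists.

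Values of some ligands and receptors were correlated across mice. Of 2211 pairs among the 67 members, 370 were correlated within groups at an adjusted permutation p under 0.05, 236 positively and 134 negatively. An absolute r of 0.5 or more was found in 10.1% of the member pairs and in 3.96% of the pairs of all 15570 genes, and with the library component taken out in 8.41% and 1.89%. Single pairs lost most of their r in this way, such as *Unc5c* and *Epha6* (0.82 to 0.16) and *Sema3d* and *Epha6* (0.82 to 0.27). Genes are not independent, and these shares are a description. *Efna5* and *Efnb2* rose and fell together (r = 0.81, rho = 0.72, adjusted permutation p = 0.000340 and 0.000381, r = 0.77 without the 2 farthest libraries, 0.84 and 0.76 within the Glu-CB1 and GABA-CB1 lines). *Epha7*, an EphA receptor that binds *Efna5*, ran opposite to it (r = −0.74, rho = −0.75, the same adjusted p, r = −0.76 without the 2 farthest, −0.71 and −0.79 within the lines). Both relations were present in the 14 libraries of low component (r = 0.91 and −0.79) and in the other 34 (r = 0.76 and −0.59). These r came from log2 CPM not centered on group means, so that differences between groups enter them. *Efnb2* was also related to the interneuron, CA3 and dentate granule lists, and the part of these lists in both relations was not tested.

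The pair of highest correlation, *Epha5* and *Epha6*, fell into 2 clusters of libraries along the component. Its r is therefore given within each, from log2 CPM not centered on group means. It was 0.20 in the 14 libraries of low component (rho = 0.00, permutation p = 0.485 and 1.00, adjusted p = 0.506, r = 0.12 without the 2 farthest) and 0.70 in the other 34 (rho = 0.69, permutation p = 1e-05 for both, adjusted p = 4.80e-05, r = 0.67 without the 2 farthest).

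**Figure D5:**
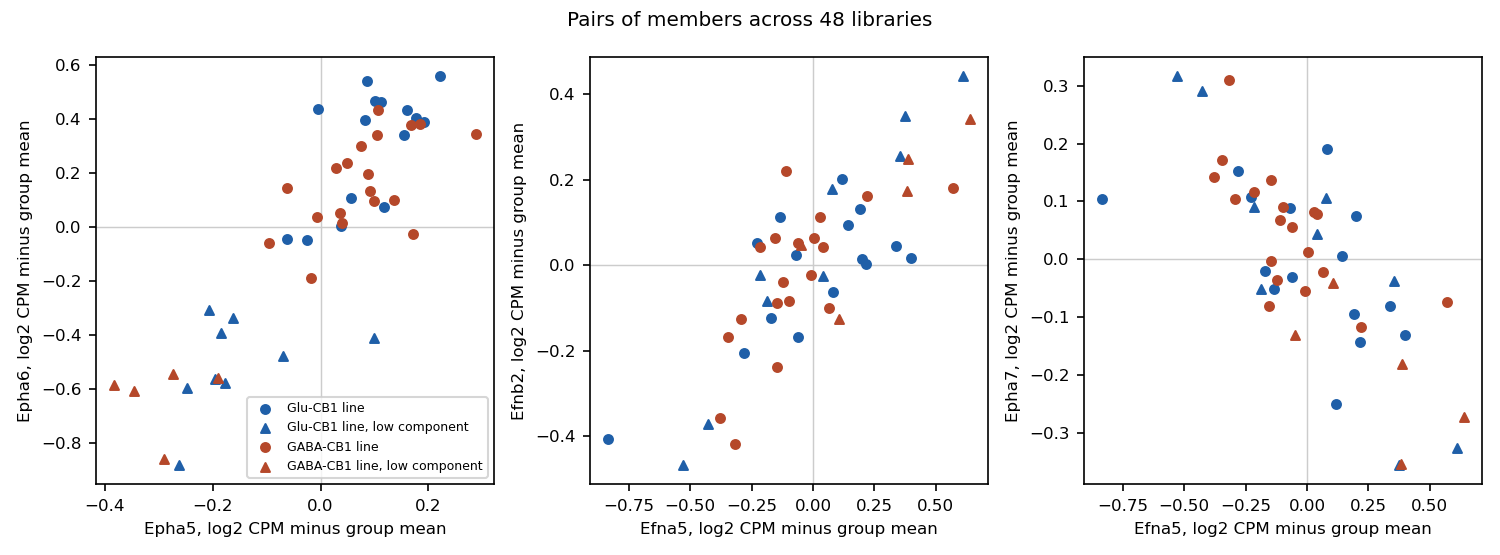
Log2 CPM minus the group mean in the 48 libraries for *Epha5* and *Epha6*, *Efna5* and *Efnb2*, and *Efna5* and *Epha7*, with the Glu-CB1 line in blue, the GABA-CB1 line in red and triangles for the 14 libraries of low component. The *Epha5* and *Epha6* points form 2 clusters, the *Efna5* and *Efnb2* points rise together and the *Efna5* and *Epha7* points run in opposite directions.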

How the data were processed

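The authors deposited raw read counts per gene, with the coordinates and length of each gene. RNA was amplified with a single-primer isothermal kit. Per the labels and the study's methods, reads were aligned with STAR 2.6.0a to mm10 and counted with featureCounts 1.6.2. Counting was strand-specific although the sources do not describe the kit as keeping strand, so values of members that overlap genes on the other strand are less certain. Counts were tested with edgeR 4.0.16 (R 4.3.3) by the robust quasi-likelihood test, with TMM normalization, filterByExpr and Benjamini-Hochberg adjustment over all genes tested; a gene was called at an adjusted p under 0.05. The test was checked on simulated data. Each of 14 comparisons used the libraries of its groups, and library totals set the precision. CPM and RPKM were computed over 48 libraries, log2 CPM with a prior count of 2. Alternatives were DESeq2 1.42.0, RLE scaling, other filters, all 48 libraries in 1 fit, the animal number range or the replicate number as a term, each library left out and, added after seeing the data, the library component as a covariate and the exclusion of 14 or 4 libraries. No library was left out in turn in the open field comparison over all mice. Correlations used residuals from group means and 100000 two-sided permutations within groups. Those among the 14 libraries of low component and among the rest used log2 CPM not centered on group means. Their permutations ran over all libraries of the cluster. SE is the fold change over the square root of F. Where nothing shows that libraries of a group came from separate litters, p-values measure the spread between these mice.

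Members named in the text are those called in any comparison, in other comparisons the 2 of smallest p, the highest and lowest of each family, the 3 most variable, those untested and called pathway genes. Others (the members on chromosome 6, *Epha6*, *Unc5c*, *Epha10* and the correlated pairs) were chosen after their values were seen. The members and lists were chosen with earlier results of these data known. The blood marker list summed to 0.78 to 2.32 CPM, and 5 of 6 CA3 markers were in the table.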

Additional observations from a re-analysis of the deposited data

Results flagged for a closer look

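*Sema4f* was singled out because the test of the difference between the Glu-CB1 and GABA-CB1 lines passed in both states: the log2 KO effect differed by −0.29 at baseline and by −0.34 after the open field. *Efnb2* was singled out by the same test after the open field, with a difference of 0.49. Within groups, 3 of 48 sets of values of the 6 called members held a library far from the others by Dixon's gap ratio, where chance alone gives about 1 in 20. They were *Efnb2* at 51.1 CPM in Glu-CB1-KO OF replicate 6, and *Ntn3* at 6.84 CPM in GABA-CB1-WT OF replicate 6 and at 9.06 CPM in Glu-CB1-KO OF replicate 4.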

How the results depend on the processing

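Directions were stable and calls near the threshold were not: no called value changed sign under any alternative. DESeq2 called 1 member in the basal and 3 in the open field Glu-CB1 comparison, 2 and 1 in those of the GABA-CB1 line, 3 and 3 over both states, 1 for the open field in the Glu-CB1 line, 5 for the line difference after the open field and 6 for the open field over all mice. With all 48 libraries in 1 fit, 1 member was called in basal Glu-CB1-KO, 1 in OF GABA-CB1-KO, 3 (Glu-CB1) and 2 (GABA-CB1) over both states, 2 and 0 for the open field in these lines and 1 for the line difference. The numbers did not pair the samples (r of same-numbered deviations from −0.34 to 0.32, over 0.1 in 4 of 21 pairs). With the replicate block, 0 members were called in OF Glu-CB1-KO, 2 and 0 over both states and 0 for the open field in the GABA-CB1 line, and *Ephb1* had an adjusted p of 0.0663. Without a filter, 3 members were called in OF Glu-CB1-KO, 2 over both states there and 0 for the open field in the GABA-CB1 line, and with 10 counts in every library 2 in OF Glu-CB1-KO. The animal number range as a covariate gave 0 in OF Glu-CB1-KO, 2 over both states in the GABA-CB1 line and 1 for the line difference after the open field.

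The library component as a covariate, chosen after seeing the data like the 2 exclusions that follow, gave 3 in OF Glu-CB1-KO, 2 and 2 over both states, 1 for the open field in the Glu-CB1 line and 6 over all mice. Without the 14 libraries of low component there were 0 in OF Glu-CB1-KO, 0 for the open field in the GABA-CB1 line and 5 over all mice. Without the choroid-rich libraries there were 1 in basal GABA-CB1-KO, 2 over both states in the Glu-CB1 line, 0 for the open field in the GABA-CB1 line and 1 for the line difference after the open field.

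Leaving out each library gave 0 to 2 called members in OF Glu-CB1-KO, 0 to 1 in each GABA-CB1-KO state, 1 to 2 (Glu-CB1) and 1 to 3 (GABA-CB1) over both states, 0 to 1 for the open field in the GABA-CB1 line and 1 to 4 for the line difference after the open field. Counts over all genes also moved under the alternatives: from 43 to between 3 and 131 in OF Glu-CB1-KO, from 38 to between 17 and 101 and from 71 to between 28 and 137 over both states in the Glu-CB1 and GABA-CB1 lines, from 39 to between 11 and 110 in basal and from 3 to between 1 and 158 in OF GABA-CB1-KO. They went from 3 to between 2 and 14 in basal Glu-CB1-KO and from 87 to between 46 and 213 for the line difference after the open field. For the open field they went from 196 to between 82 and 373 (Glu-CB1) and from 149 to between 13 and 285 (GABA-CB1). Over all mice the open field count went from 1327 to between 854 and 1763. Member counts were not set against the total of each setting, so their change alone is no result about the members. Of the relations of the 3 most variable members to marker lists, 6 passed over 48 libraries, 0 within the Glu-CB1 and 1 within the GABA-CB1 line, where fewer libraries entered. The cause of the other changes was not tested. Low members such as *Efna4* and *Epha1* are limited by their counts.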

Other observations

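Further pairs of members varied together across mice. *Plxnc1*, a receptor of class 7 semaphorins, and *Robo3*, a robo that modulates slit repulsion, ran in opposite directions within groups (r = −0.74, rho = −0.68, adjusted permutation p = 0.000340 and 0.000650, r = −0.66 without the 2 farthest libraries, −0.76 and −0.74 within the Glu-CB1 and GABA-CB1 lines). *Robo3* ranged from 15.02 CPM in Glu-CB1-KO OF replicate 5 to 55.6 CPM in Glu-CB1-KO basal replicate 2. *Sema6b* and *Ephb6* rose together (r = 0.81, rho = 0.78, adjusted permutation p = 0.000340 and 0.000381, r = 0.74 without the 2 farthest, 0.82 and 0.80 within the lines). The class 4 semaphorin *Sema4g* ran opposite to *Epha7* (r = −0.75, rho = −0.70, adjusted permutation p = 0.000340 and 0.000381, r = −0.68 without the 2 farthest, −0.68 and −0.83 within the lines).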
